A study of Mus musculus with 105 samples.

Results

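Poly(A) RNA of 2 mouse tumour lines, B16OVA and MCA101OVA, was compared in 6 of the 105 libraries of the series, 3 unedited libraries of each line, all with the condition WT. Libraries were made from poly(A) RNA with a TruSeq Stranded mRNA kit. B16 is a melanoma line and MCA101 a fibrosarcoma line, both of strain C57BL/6, and both were used here in the form whose sample titles carry OVA (ovalbumin, a chicken egg protein used as a model antigen). The libraries were taken by their titles: all 3 unedited B16OVA and all 3 unedited MCAOVA libraries of the sequencing run codes B253 and B262. Both lines grew in RPMI medium with 10% fetal calf serum and 2 µg/mL puromycin, and trypsinised cells were lysed in Trizol for each library. The same lines with the condition Ctrl, again 3 libraries each from the same runs, whose meaning the labels do not explain further, and single libraries of run B176 (each line with and without OVA) served as further measurements of the line difference. The labels do not say that replicates are separate cultures, so each p-value here reflects the scatter among the libraries alone, which may be technical. Each line is a single established line, so the comparison is of these lines and not of melanoma with fibrosarcoma in general.

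Melanoma arises from melanocytes, cells of neural crest origin that make melanin in melanosomes under the control of the transcription factor Mitf. Fibrosarcoma arises from mesenchymal cells, which lay down and remodel collagenous matrix and carry a positional memory in their homeobox genes. B16 is known for its low level of MHC class I, the complex that shows peptides to CD8 T cells, and lines of both kinds are grown in mice to study T-cell responses to ovalbumin.

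The 6 libraries held 21089552 to 43028838 counts each, and the 6 Ctrl libraries 17213717 to 26888729. One library stood apart, B16OVA replicate 2. Its correlation with the other B16OVA libraries was 0.912 and 0.932 on log2 CPM (counts scaled to the library total), against 0.986 between those and 0.960 to 0.979 within MCA101OVA. Its long genes had fewer counts: the slope of log2 CPM on log2 exon length across genes was -0.377, against 0.263 and 0.132 in the other B16OVA libraries and -0.0132 to 0.201 in MCA101OVA. Replicates of the lines fall into 3 library sets by their numbers (run B253, and samples 1 to 12 and 13 to 24 of run B262). Ctrl replicate 2 of each line, from the same set, had the lowest slopes of these 12 libraries, -0.783 and -0.534. The calls of most lists are therefore given with the number that remained when each library was left out in turn. All 7 melanocyte markers (Tyr, Tyrp1, Dct, Pmel, Mlana, Mitf, Sox10) were called higher in B16OVA, while Ptprc, Cd3e and Epcam had no count in any of the 6 libraries. Not every marker of another cell type was silent. Cd14, of monocytes, had no count in B16OVA and 9.02, 17.5 and 10.4 CPM in MCA101OVA, and the summed level of the 10 leukocyte markers was 5.46 to 6.92 CPM in B16OVA and 12.2 to 22.8 in MCA101OVA. Vwf, of endothelium, was called higher in B16OVA at 8.27, 10.1 and 8.65 CPM, with a sum over 8 endothelial markers of 8.37 to 10.2 CPM against 0.484 to 2.19. Krt8 and Krt18, of epithelium, are described with the keratins. The part of other cells in the results was not tested. Of the fibroblast markers, Thy1 had no count in either line and Col1a1 and Col1a2 were higher in B16OVA (Col1a1 with an adjusted p of 0.0125, and 0.0591 and 0.053 without MCA101OVA replicate 2 or 3), and the markers higher in MCA101OVA were Twist2, Prrx1, Col3a1 and Pdgfra. Setdb1, the H3K9 methyltransferase deleted elsewhere in the series, stood at 96.1, 54.2 and 73.2 CPM in B16OVA and 84.2, 85.1 and 61.2 in MCA101OVA, overlapping ranges with no call (log2 fold -0.10 ± 0.32 (SE), adjusted p = 0.863).

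The lines differed in a large part of what they express. Of 14266 genes tested with edgeR's quasi-likelihood test, 3747 were called at an adjusted p under 0.05, which is 26.3% of the tested genes. B16OVA was higher for 2053 (14.4%) and MCA101OVA for 1694 (11.9%). Against a minimum of 4-fold, 1167 genes (8.18%) were called higher in B16OVA and 836 (5.86%) higher in MCA101OVA. The median log2 fold over all tested genes was 0.02, with positive values higher in B16OVA throughout. Of the 3747 calls, 2391 remained whichever library was left out, 1339 of them higher in B16OVA, and all 3747 remained when the library set (replicates of the 2 lines that share a set) was fitted as a block, together with 1375 further genes. Some genes had no count at all in one line: of 7556 genes with at least 10 CPM in every B16OVA library, 19 had no count in MCA101OVA, and of 7922 such genes in MCA101OVA, 50 had none in B16OVA.

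The direction of the line difference was then read in other libraries. In the Ctrl libraries 2251 of 13385 tested genes were called (16.8%), or 3972 with the library set as a block. Of the 1167 genes past 4-fold in B16OVA, 980 were tested in Ctrl, all 980 in the same direction, and 955 were called. Of the 836 on the MCA101OVA side, 740 were tested, all 740 in the same direction, and 730 were called. The single libraries of run B176 had the same sign for 1157 and 830 of these genes in the OVA lines and for 1139 and 820 in the lines without OVA. A test of whether the line difference depended on the condition (unedited or Ctrl) called 0 of 14728 genes with edgeR, with 77 at an unadjusted p under 0.05, and 0 with DESeq2, with 94. Both 77 and 94 lie far under a share of 0.05 of the genes, which evenly spread p-values would give, so the test was conservative here. With 3 libraries a group, a p that misses the threshold does not show that the conditions were alike.

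**Figure D1:**
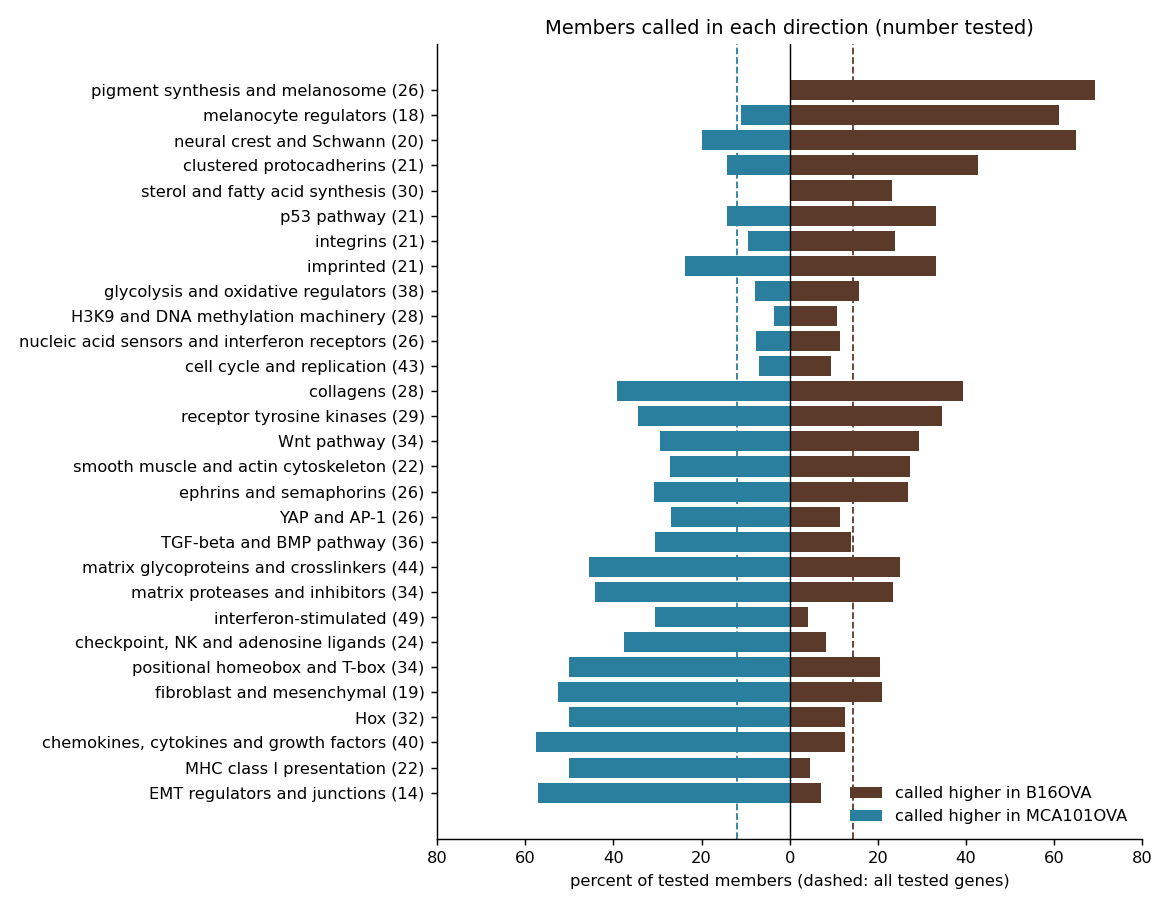
Percent of the tested members of each gene list that were called higher in B16OVA (right) or in MCA101OVA (left). Numbers tested are in brackets, and dashed lines mark the shares of all tested genes, 14.4% and 11.9%. Lists with fewer than 14 tested members and the Zfp list are not drawn. Pigment synthesis stands at the top with 18 of 26 members higher in B16OVA. The list of EMT (epithelial-mesenchymal transition) regulators and junctions is lowest, and the MHC class I, cytokine and Hox lists near it also lie mostly on the MCA101OVA side. The lists were chosen with earlier results of these data known, so a share above the dashed lines is a description only.

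Pigment genes separated the lines plainly. The promoters of 3 of them and of the regulator Mc1r are shown because they share the extended E-box TCATGTG, a sequence that Mitf is known to bind. Each window holds the 250 bases before the RefSeq start (build GRCm38.p6), 5′ to 3′ along the gene, and capitals mark TCATGTG on either strand. They are Tyr at chr7:87493513-87493762, minus strand, Tyrp1 at chr4:80833963-80834212, plus strand, Dct at chr14:118052247-118052496, minus strand, and Mc1r at chr8:123406832-123407081, plus strand.
Tyr: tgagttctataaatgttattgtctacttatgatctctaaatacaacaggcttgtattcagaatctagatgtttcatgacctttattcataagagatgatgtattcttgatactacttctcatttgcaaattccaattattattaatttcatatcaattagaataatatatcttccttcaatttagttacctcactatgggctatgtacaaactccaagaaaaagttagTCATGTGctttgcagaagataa
Tyrp1: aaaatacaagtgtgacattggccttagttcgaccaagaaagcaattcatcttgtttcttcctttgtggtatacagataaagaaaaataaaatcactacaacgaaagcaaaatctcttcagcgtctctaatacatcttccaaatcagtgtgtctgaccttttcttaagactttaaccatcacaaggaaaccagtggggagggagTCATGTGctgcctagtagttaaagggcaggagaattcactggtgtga
Dct: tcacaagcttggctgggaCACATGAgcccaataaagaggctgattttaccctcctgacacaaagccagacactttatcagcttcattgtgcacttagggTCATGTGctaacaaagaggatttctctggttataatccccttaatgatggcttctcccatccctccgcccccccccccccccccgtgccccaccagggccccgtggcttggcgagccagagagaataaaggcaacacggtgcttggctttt
Mc1r: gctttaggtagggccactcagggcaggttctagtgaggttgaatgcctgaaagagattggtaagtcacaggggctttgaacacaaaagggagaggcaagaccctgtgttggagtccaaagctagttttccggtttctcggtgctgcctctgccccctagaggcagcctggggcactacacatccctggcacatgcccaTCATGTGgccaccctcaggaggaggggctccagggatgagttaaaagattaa
The match begins 22 bases before the start in Tyr, 47 in Tyrp1 and 52 in Mc1r, and Dct holds matches at 232 and 151 bases before it, the first on the other strand. Of the 26 genes of the pigment list, 20 had a window and 7 of these held the motif, against 1006 of all 27025 genes with a window (3.72%). A match is a description of these letters and not a site shown to be bound.

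Of 26 tested pigment genes, 18 were called higher in B16OVA and none higher in MCA101OVA, with a median log2 fold of 8.17, and 17 of the 18 calls remained with any library left out. Tyrp1, a melanin-forming enzyme of the melanosome, stood at 11716, 7532 and 10774 CPM in the 3 B16OVA libraries and at 2.05, 3.93 and 2.99 in MCA101OVA (log2 fold 11.70 ± 0.60 (SE), adjusted p = 9.26e-06). Dct, which converts dopachrome in the same pathway, stood at 8247, 6807 and 7177 CPM in B16OVA and 1.86, 2.32 and 2.90 in MCA101OVA (log2 fold 11.60 ± 0.55 (SE), adjusted p = 9.26e-06). Tyr, tyrosinase, the rate-limiting enzyme of melanin synthesis, stood at 749, 553 and 771 CPM in B16OVA and 0.116, 0.512 and 0.242 in MCA101OVA (log2 fold 11.29 ± 0.63 (SE), adjusted p = 1.21e-05). All 3 enzymes were thus high in every B16OVA library and at a few CPM or less in every MCA101OVA library. Pmel, which forms the fibrils that melanin is laid on, stood at 4409, 5967 and 4006 CPM in B16OVA and 1.56, 2.05 and 1.57 in MCA101OVA (log2 fold 11.42, adjusted p = 9.26e-06). Mlana, a melanosome membrane protein recognised by T cells, stood at 1009, 1007 and 1167 CPM in B16OVA and 0.325, 0.478 and 0.423 in MCA101OVA (log2 fold 11.32, adjusted p = 9.26e-06). Gpr143, a melanosomal receptor, was at 38.8, 50.6 and 45.5 CPM in B16OVA with no count in MCA101OVA, at least 1548-fold higher. The transport proteins followed. Mlph, which links melanosomes to the motor that carries them, stood at 574, 593 and 681 CPM in B16OVA and 0.116, 0.137 and 0.181 in MCA101OVA (log2 fold 11.998, adjusted p = 9.26e-06), and its partner Rab27a at 289, 170.2 and 320.98 in B16OVA and 2.74, 4.37 and 2.75 in MCA101OVA (log2 fold 6.27, adjusted p = 3.25e-05). Gpnmb, a melanosomal glycoprotein also made by macrophages and other cells, was the exception in level: MCA101OVA kept 206, 413 and 457 CPM of it, against 5217, 8540.1 and 6434 in B16OVA (log2 fold 4.27 ± 0.41 (SE), adjusted p = 0.000105). The other 8 members did not pass the test, though 3 of them were called with the library set as a block. One of the 8, Cd63, a membrane protein of lysosome-related organelles in many cell types, stood at 549, 1008 and 681 CPM in B16OVA and 438, 574 and 491 in MCA101OVA (log2 fold 0.54, adjusted p = 0.313). The counts of a few CPM in MCA101OVA differed between runs: Tyrp1 stood at 0.186 CPM in the MCA101OVA library of run B176 and at 0.275 in MCA101 without OVA, where B16 libraries of the same run had 4325 or more. The source of those counts was not tested, and in bulk RNA fewer cells of a type cannot be told apart from less RNA per cell. In the 5 melanocyte libraries of the series, which come from another run, Tyrp1 ranged from 3382 to 20464 CPM.

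Most tested regulators of the melanocyte fate were also higher in B16OVA. Of 22 listed, 18 were tested, and 11 of these were called higher in B16OVA and 2 higher in MCA101OVA. Of the 13 calls, 12 remained with any library left out. Ednrb, Irf4, Tfap2b and Bcl2a1b had too few counts to be tested, with 1, 10, 6 and 0 counts in B16OVA. Their medians in the melanocyte libraries, from another run, were 98.3, 67.5, 121 and 0.388 CPM. Mitf, the master regulator of pigment genes (chr6:97807052-98021349), stood at 563, 113 and 504 CPM in B16OVA and 4.53, 3.82 and 6.89 in MCA101OVA (log2 fold 6.15 ± 0.66 (SE), adjusted p = 0.000197). The low value is that of B16OVA replicate 2, and the groups did not overlap. Sox10, which switches Mitf on in neural crest cells, stood at 506, 842 and 490.1 CPM in B16OVA and 0.139, 0.102 and 0.212 in MCA101OVA (log2 fold 11.91 ± 0.60 (SE), adjusted p = 9.26e-06). Pax3, its partner, stood at 276, 105 and 223 CPM in B16OVA and 0.0232, 0.205 and 0.302 in MCA101OVA (log2 fold 10.18, adjusted p = 5.76e-05). Mc1r, the receptor for melanocyte-stimulating hormone, stood at 414, 597 and 347.3 CPM in B16OVA and 0.186, 0.171 and 0.151 in MCA101OVA (log2 fold 11.32, adjusted p = 9.26e-06). Each of these was on in all 3 B16OVA libraries and under 1 CPM in MCA101OVA, apart from Mitf, which kept a few CPM. Receptor and ligand of one pair were split between the lines. Kit, the receptor that melanocytes need to survive and migrate, was at 9.71, 2.80 and 5.74 CPM in B16OVA with no count in MCA101OVA, at least 233-fold higher. Kitl, its ligand, was at 1.57, 0.190 and 2.75 CPM in B16OVA and 36.5, 28.3 and 28.6 in MCA101OVA (log2 fold -4.40 ± 0.81 (SE), adjusted p = 0.00313). Lef1, a mediator of Wnt signals that works with Mitf, was the other regulator on the MCA101OVA side (log2 fold -3.38, adjusted p = 0.00313). Met, the receptor of hepatocyte growth factor and a Mitf target, stood at 1049, 233 and 838 CPM in B16OVA and 32.0, 18.3 and 25.4 in MCA101OVA (log2 fold 4.70, adjusted p = 0.000228), and Cdk2, the neighbour of Pmel in the genome, at 542, 413 and 490.1 in B16OVA and 74.2, 66.7 and 60.5 in MCA101OVA (log2 fold 2.81, adjusted p = 0.000228). Cdk2 (chr10:128697939-128705031, minus strand) overlaps the end of Pmel (chr10:128704195-128720238, plus strand). How strand was used in counting is not given in the sources used here, and the part of Pmel reads in the Cdk2 counts was not tested.

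Neural crest and Schwann cell genes were divided. Of 20 tested, 13 were higher in B16OVA and 4 higher in MCA101OVA, and 16 of the 17 calls remained with any library left out. The share called was 85.0% against 26.3% of all tested genes. Members were chosen with earlier results of these data known, so this share is a description only. On the B16OVA side, S100b, a calcium-binding protein used as a melanoma marker, stood at 64.4, 84.5 and 82.1 CPM, 2665-fold (95% interval 912 to 12927) above MCA101OVA, where it had 3 counts in all. Nrcam, a neuronal adhesion molecule, stood at 445, 221 and 347.4 CPM in B16OVA and 0.139, 0.205 and 0.272 in MCA101OVA (log2 fold 10.62, adjusted p = 9.26e-06). Mbp, the myelin basic protein, stood at 66.9, 128 and 59.7 CPM in B16OVA and 0.209, 0.239 and 0.0605 in MCA101OVA (log2 fold 8.91, adjusted p = 5.92e-05). Mcam, a melanoma adhesion molecule, and Apoe, a lipid carrier, were also higher in all 3 B16OVA libraries (log2 fold 6.30 and 5.31). Of the 4 on the MCA101OVA side, 3 remained with any library left out. Cspg4, a proteoglycan used as a melanoma antigen in humans, stood at 9.42, 8.06 and 10.3 CPM in B16OVA and 156, 114 and 134 in MCA101OVA (log2 fold -3.88 ± 0.36 (SE), adjusted p = 0.0001). Sox2, a stem-cell factor, had no count in B16OVA and 5.72, 6.52 and 7.29 CPM in MCA101OVA, at least 215-fold higher. Snai2, a repressor of epithelial genes, stood at 2.70, 0.759 and 2.77 CPM in B16OVA and 18.5, 19.8 and 30.4 in MCA101OVA (log2 fold -3.52, adjusted p = 0.00225).

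**Figure D2:**
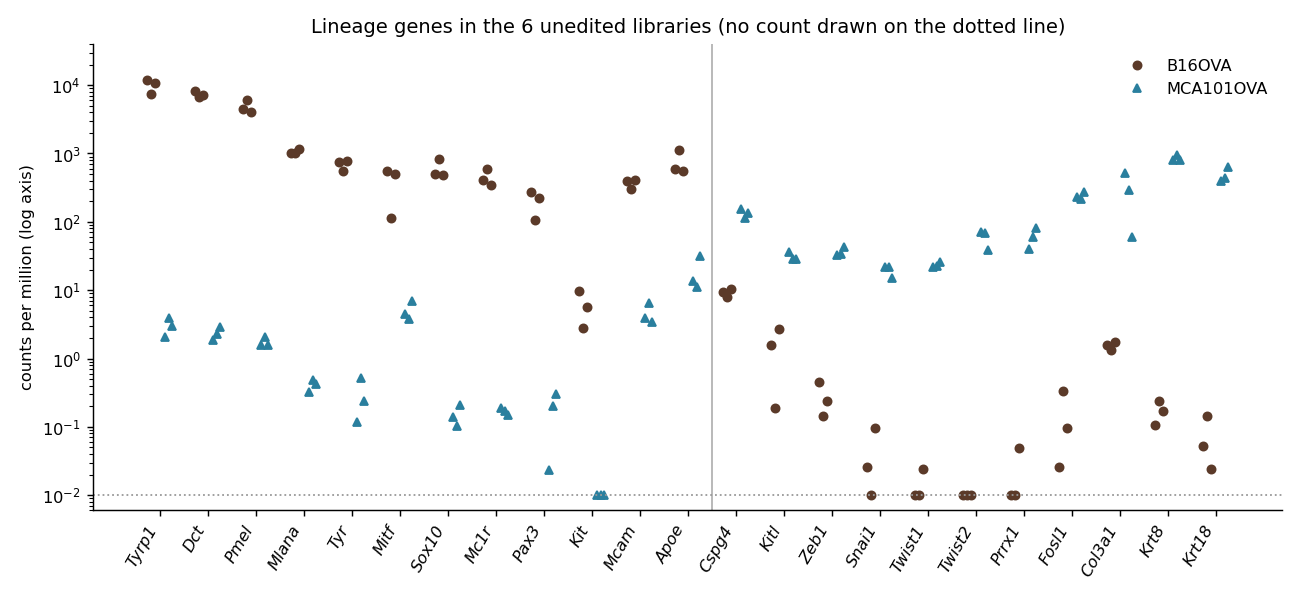
CPM (log axis) of lineage genes in the 3 B16OVA and 3 MCA101OVA libraries, one point per library, with a library that has no count drawn on the dotted line. The 12 genes on the left are higher in all B16OVA libraries and the 11 on the right in all MCA101OVA libraries. The low Mitf point of B16OVA is replicate 2.

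MCA101OVA carried the mesenchymal transcription factors. Several were also expressed in the melanocyte libraries, from another run, with medians of 84.8 CPM for Prrx1, 32.1 for Zeb1, 24.9 for Twist2 and 14.2 for Twist1. Of 19 tested fibroblast and mesenchymal genes, 10 were higher in MCA101OVA and 4 in B16OVA (median log2 fold -2.29), and 12 of the 14 calls remained with any library left out. Twist2, a repressor that keeps mesenchymal cells immature, had no count in B16OVA and 70.4, 68.3 and 39.1 CPM in MCA101OVA, at least 2007-fold higher. Twist1, its relative, had 1 count in all of B16OVA and 21.5, 22.7 and 25.5 CPM in MCA101OVA, 2318-fold (95% interval 416 to 91613). Prrx1, a homeobox factor of limb and facial mesenchyme, stood at 40.0, 59.4 and 82.0 CPM in MCA101OVA and had 2 counts in B16OVA, 2938-fold (95% interval 813 to 24268). The intervals cover counting error only. Fosl1, a subunit of the AP-1 factor, stood at 0.0262, 0.332 and 0.0972 CPM in B16OVA and 229, 213 and 271 in MCA101OVA (log2 fold -10.88 ± 0.77 (SE), adjusted p = 3.16e-05). Zeb1, a repressor of epithelial genes, stood at 0.446, 0.142 and 0.243 CPM in B16OVA and 32.9, 34.1 and 42.1 in MCA101OVA (log2 fold -7.09, adjusted p = 5.75e-05), and Snai1, another, at 0.0262, 0 and 0.0972 in B16OVA and 21.8, 21.7 and 15.1 in MCA101OVA (log2 fold -8.62, adjusted p = 0.000114). Their relative Zeb2 had the opposite order, 172, 39.5 and 156 CPM in B16OVA and 22.8, 32.3 and 66.7 in MCA101OVA, without a call (log2 fold 1.55, adjusted p = 0.101). It was called with the library set as a block (adjusted p = 0.00349) and without B16OVA replicate 2 (adjusted p = 0.0119). Of 14 tested regulators of epithelial-mesenchymal transition and junction genes, 8 were higher in MCA101OVA and 1, Cdh1 (E-cadherin, log2 fold 5.13, adjusted p = 0.00368), in B16OVA. The 8 were not all mesenchymal: 5 are transition factors (Snai1, Snai2, Twist1, Twist2 and Zeb1), and the others were Grhl2, a transcription factor of epithelia (log2 fold -4.01, adjusted p = 0.00207), Ocln, a protein of tight junctions with no count in B16OVA (at least 58.7-fold higher), and Pkp2, a desmosome protein (log2 fold -1.47, adjusted p = 0.0269). Pkp2 was called without B16OVA replicate 2 but with none of the 5 other libraries left out (adjusted p 0.0599 to 0.242). Vim, vimentin, an intermediate filament of mesenchymal cells, stood at 1607, 1853 and 2189.8 CPM in B16OVA and 6404, 6646 and 2096 in MCA101OVA. Its 2 high MCA101OVA values were above all of B16OVA but the value of replicate 3 was not, and it had no call (log2 fold -1.43, adjusted p = 0.0694), though it had one with the block (adjusted p = 0.0159) and without MCA101OVA replicate 3 (adjusted p = 0.00953). Not all mesenchymal markers lay on that side: Eng, a coreceptor of the TGF-beta family, stood at 259, 397 and 308.7 CPM in B16OVA and 1.91, 4.44 and 1.03 in MCA101OVA (log2 fold 7.02 ± 0.63 (SE), adjusted p = 8.1e-05).

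Krt8 and Krt18, a keratin pair of simple epithelia, were on in the fibrosarcoma line. Krt8 stood at 0.105, 0.237 and 0.170 CPM in B16OVA and 814, 940.1 and 811 in MCA101OVA (log2 fold -12.36 ± 0.54 (SE), adjusted p = 9.26e-06), and its partner Krt18 at 0.0525, 0.142 and 0.0243 in B16OVA and 392, 431 and 625 in MCA101OVA (log2 fold -12.85 ± 0.67 (SE), adjusted p = 9.26e-06). All 3 MCA101OVA libraries were high and all 3 B16OVA libraries were at a few counts. Krt19, another keratin of simple epithelia, had 1 count in B16OVA and 12 in MCA101OVA and was not tested. Of 50 keratin genes 5 were tested, and 3 of them were called higher in MCA101OVA (Krt10 besides the pair) and 2 in B16OVA. Of the other epithelial markers, Epcam, Cldn3 and Cldn7 had no count in either line and Cdh1 was higher in B16OVA. In the single libraries of run B176, Krt8 stood at 631 CPM in MCA101OVA and 311.9 in MCA101 without OVA. Small calcium-binding proteins went with them: of 9 tested S100 genes, 5 were higher in MCA101OVA and 1, S100b, in B16OVA, and all 6 calls remained with any library left out. S100a6, which many mesenchymal cells express, stood at 8.71, 34.9 and 25.9 CPM in B16OVA and 1566, 2207 and 754 in MCA101OVA (log2 fold -6.22 ± 0.69 (SE), adjusted p = 0.000226), and S100a4, a marker of motile fibroblasts, at 0.0787, 0.285 and 0.219 in B16OVA and 10.6, 8.84 and 2.18 in MCA101OVA (log2 fold -5.23, adjusted p = 0.00238).

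The collagen list was split evenly, with 11 of 28 tested genes higher in each line and a median log2 fold of 0.02 against 0.02 over all tested genes, and 20 of the 22 calls remained with any library left out. Collagens of the same type stood on both sides. Col3a1, a fibrillar collagen of soft tissue, stood at 1.57, 1.33 and 1.73 CPM in B16OVA and 521, 291 and 60.7 in MCA101OVA (log2 fold -7.37 ± 0.77 (SE), adjusted p = 0.000167). Its MCA101OVA values spread over a wide range, yet the lowest was far above every B16OVA value. Col6a1 and Col6a2, chains of the beaded collagen VI, were also on in MCA101OVA: Col6a1 stood at 0.682, 0.759 and 0.705 CPM in B16OVA and 65.9, 78.0 and 22.8 in MCA101OVA (log2 fold -6.29, adjusted p = 0.000143), and Col6a2, with no count in B16OVA, was at least 1083-fold higher. The basement membrane chains Col4a1 and Col4a2 were expressed by both lines and higher in MCA101OVA (log2 fold -2.65 and -2.60, adjusted p 0.00054 and 0.000429). Col7a1, which anchors epidermis to dermis, stood at 1.68, 0.616 and 1.56 CPM in B16OVA and 244, 61.7 and 67.5 in MCA101OVA (log2 fold -6.35, adjusted p = 8.02e-05). Fibrillar and basement membrane chains were on the B16OVA side too. Col1a2, a chain of collagen I, stood at 7.64, 1.94 and 4.45 CPM in B16OVA and 0.139, 0 and 0 in MCA101OVA (log2 fold 6.80, adjusted p = 0.000833), and Col15a1, a basement membrane collagen, at 37.5, 15.1 and 25.9 in B16OVA and 0.0930, 0.307 and 0.212 in MCA101OVA (log2 fold 6.96, adjusted p = 0.000133). In the single OVA libraries of run B176, Col1a2 was nearly silent in both lines, at 0.111 CPM in B16OVA and 0.0797 in MCA101OVA. Without OVA it stood at 0.679 CPM in B16 and 0 in MCA101. Col1a2 was not tested in Ctrl, where its means were 5.15 CPM in B16OVA and 0.0146 in MCA101OVA.

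Other matrix genes leaned to MCA101OVA. Of 44 tested matrix glycoproteins and crosslinkers, 20 were higher in MCA101OVA and 11 in B16OVA, and 26 of the 31 calls remained with any library left out. Fbln2, fibulin 2, stood at 0.105, 0.0474 and 0.0729 CPM in B16OVA and 578, 569 and 299 in MCA101OVA (log2 fold -12.60 ± 0.58 (SE), adjusted p = 9.26e-06), whereas its relative Fbln5, an elastic fibre protein, stood at 327.2, 267 and 316.7 in B16OVA and 0.139, 0.0341 and 0.181 in MCA101OVA (log2 fold 11.22 ± 0.61 (SE), adjusted p = 1.07e-05). Members of one family thus marked opposite lines. The laminins were divided in the same way: Lama4, a laminin chain of vessel walls, had 148, 92.5 and 113 CPM in B16OVA and 1 count in MCA101OVA, 12859-fold (95% interval 2308 to 507953), while Lamb1 stood at 30.5, 16.5 and 29.3 CPM in B16OVA and 496, 476 and 723 in MCA101OVA (log2 fold -4.52, adjusted p = 8.22e-05) and Lama5 at 39.1, 28.5 and 19.15 in B16OVA and 254, 281 and 359 in MCA101OVA (log2 fold -3.42, adjusted p = 0.000275). In the single OVA libraries of run B176 Lama5 had the opposite order, 187 CPM in B16OVA and 159.8 in MCA101OVA. Loxl4, an enzyme that crosslinks collagen, stood at 0.813, 0.854 and 0.583 CPM in B16OVA and 79.2, 88.9 and 146 in MCA101OVA (log2 fold -7.13, adjusted p = 3.2e-05). Thbs1, thrombospondin 1, which activates latent TGF-beta, stood at 9.998, 3.13 and 16.4 CPM in B16OVA and 824, 1010.5 and 248 in MCA101OVA (log2 fold -6.17, adjusted p = 0.000486). Sparc, a collagen-binding glycoprotein, was expressed by both lines and higher in B16OVA (log2 fold 2.61, adjusted p = 0.000976). Among 34 tested proteases and inhibitors, 15 were higher in MCA101OVA and 8 in B16OVA, of which 15 of 23 remained with any library left out. Mmp2, a gelatinase, stood at 4.41, 3.84 and 5.03 CPM in B16OVA and 93.3, 82.6 and 64.2 in MCA101OVA (log2 fold -4.197 ± 0.41 (SE), adjusted p = 0.000118), and Ctsl, cathepsin L, at 189, 185 and 142 in B16OVA and 1280.2, 1455 and 1281 in MCA101OVA (log2 fold -2.98 ± 0.34 (SE), adjusted p = 0.000273). Adam12, a membrane protease, lay on the other side with 125, 43.3 and 97.4 CPM and 3 counts in MCA101OVA, 3389.8-fold (95% interval 1159.6 to 16440.5).

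Integrins are the adhesion receptors that bind this matrix. Of 21 tested integrin genes, 5 were higher in B16OVA and 2 in MCA101OVA, a share of 33.3% that is near the 26.3% of all tested genes, and all 7 calls remained with any library left out. Itga9, which binds tenascin and osteopontin, stood at 60.4, 41.6 and 38.3 CPM in B16OVA and 0.0232, 0.0341 and 0.0907 in MCA101OVA (log2 fold 9.78, adjusted p = 3.09e-05). Itgb3, the beta chain of the vitronectin receptor and known in melanoma invasion, stood at 28.0, 24.8 and 29.8 CPM in B16OVA and 0.0930, 0.137 and 0 in MCA101OVA (log2 fold 8.41, adjusted p = 0.000132). Itga4, an alpha chain of the receptor for Vcam1, stood at 225, 21.6 and 193 CPM in B16OVA and 0.0465, 0.0683 and 0.0605 in MCA101OVA (log2 fold 11.12, adjusted p = 0.000105), lowest in B16OVA replicate 2. In MCA101OVA the laminin receptor chain Itga3 stood at 221, 235 and 239 CPM against 2.07, 5.07 and 1.43 in B16OVA (log2 fold -6.38, adjusted p = 0.000105), and Itgb7, known from lymphocytes, at 95.2, 159 and 152 against 0.0787, 0.0474 and 0.146 (log2 fold -10.40, adjusted p = 9.26e-06). Of 21 tested clustered protocadherins, cell-surface proteins that mark single neurons, 9 were higher in B16OVA and 3 in MCA101OVA, 8 of the 12 in every set with a library left out. Their exons are shared between neighbouring genes, so the counts can be split between members.

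Homeobox and T-box genes, which record where in the body a cell comes from, were divided between the lines. Of 32 tested Hox genes, 16 were higher in MCA101OVA and 4 in B16OVA, and 18 of the 20 calls remained with any library left out. The Hoxc cluster marked MCA101OVA: Hoxc10 had no count in B16OVA and 27.4, 35.1 and 17.3 CPM in MCA101OVA, at least 882-fold higher. Hoxc11 stood at 30.3, 36.7 and 48.4 CPM in MCA101OVA with 1 count in B16OVA, 3789-fold (95% interval 679.6 to 149680.0). Hoxc4, at the other end of the cluster, stood at 0.0787, 0.0474 and 0.0729 CPM in B16OVA and 9.53, 9.94 and 9.46 in MCA101OVA (log2 fold -7.11, adjusted p = 8.85e-05), and all 9 Hoxc genes were called. Hoxd8, Hoxd9 and Hoxd10 had no count in any B16OVA library, with 19.3, 21.3 and 20.9 CPM of Hoxd9 in MCA101OVA, at least 681-fold higher. Hoxd13, the last gene of that cluster, was on in both lines without a call, at 17.1, 8.25 and 15.8 CPM in B16OVA and 7.74, 5.26 and 10.8 in MCA101OVA (log2 fold 0.73, adjusted p = 0.347). In the Hoxb cluster, Hoxb3, Hoxb5 and Hoxb6 were not called and 3 genes were higher in B16OVA. Hoxb3 was called higher in B16OVA with DESeq2 (adjusted p = 0.0361) and with 27 libraries in the fit (adjusted p = 0.0114). Hoxb9 stood at 33.7, 32.5 and 17.3 CPM in B16OVA with 3 counts in MCA101OVA, 939-fold (95% interval 321.1 to 4557), and Hoxb8 and Hoxb13 had no count in MCA101OVA, at least 95.9-fold and 59.5-fold higher in B16OVA. In the Hoxa cluster 4 genes were higher in MCA101OVA and 1, Hoxa3, in B16OVA (log2 fold 1.77, adjusted p = 0.0323), whose call was lost without B16OVA replicate 1 or 3 (adjusted p 0.167 and 0.0975) and without MCA101OVA replicate 1, 2 or 3 (0.176, 0.104 and 0.0926). Hoxa10 was expressed by both without a call (log2 fold -0.36, adjusted p = 0.548), while Hoxa9 was higher in MCA101OVA (log2 fold -4.29, adjusted p = 0.000503). Hox genes overlap with antisense transcripts in each cluster, and how strand was used in counting is not given in the sources used here.

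**Figure D3:**
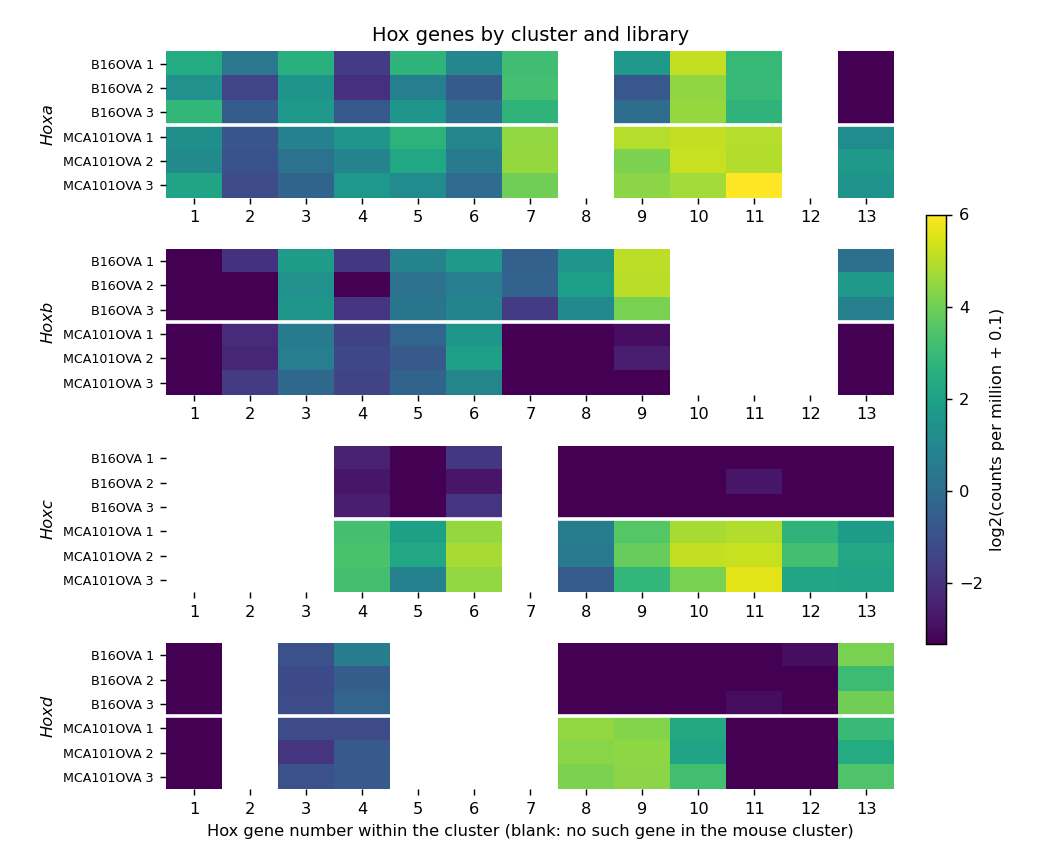
Level of each Hox gene, log2(CPM + 0.1), by cluster (rows of panels), gene number and library, with the 3 B16OVA libraries above the white line and the 3 MCA101OVA libraries below it. Hoxc and Hoxd8 to Hoxd10 are dark in B16OVA and bright in MCA101OVA, Hoxb8, Hoxb9 and Hoxb13 the reverse.

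Of 34 tested positional genes outside the Hox clusters, 17 were higher in MCA101OVA and 7 in B16OVA, with 19 of 24 in every set with a library left out. Tbx2 and Tbx3, T-box repressors that often act in the same tissues, marked opposite lines. Tbx2, which melanoma cells are known to use against senescence, stood at 88.5, 116 and 106 CPM in B16OVA and 0.0697, 0.205 and 0.0907 in MCA101OVA (log2 fold 9.73 ± 0.56 (SE), adjusted p = 1.42e-05). Tbx3 had 1 count in B16OVA and 33.6, 31.1 and 15.8 CPM in MCA101OVA, 2740.3-fold (95% interval 491 to 108274). Tbx18, a mesenchymal T-box gene, had no count in B16OVA and 13.5, 14.4 and 27.7 CPM in MCA101OVA, at least 609-fold higher. Tbx4, a hindlimb gene, stood at 40.6, 30.8 and 24.9 CPM in B16OVA and 0, 0.0341 and 0.0907 in MCA101OVA (log2 fold 9.54, adjusted p = 8.73e-05). The forkhead factor Foxf1, a mesenchymal target of hedgehog, stood at 0.315, 0 and 0.146 CPM in B16OVA and 32.0, 31.1 and 46.3 in MCA101OVA (log2 fold -7.94, adjusted p = 0.000168). Msx1, which keeps limb mesenchyme undifferentiated, had no count in B16OVA, at least 378-fold lower than in MCA101OVA. Alx1, a factor of head mesenchyme, stood at 30.8, 22.7 and 36.4 CPM in B16OVA with 1 count in MCA101OVA, 3307-fold (95% interval 593 to 130669).

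Many genes of MHC class I presentation were lower in B16OVA. Of 22 tested MHC class I pathway genes, 11 were called higher in MCA101OVA and 1, H2-Q4, in B16OVA (median log2 fold -1.29), but only 8 of the 12 calls remained with every library left out. H2-K1, a classical class I heavy chain and the one that presents the main ovalbumin peptide, stood at 21.3, 66.4 and 21.3 CPM in B16OVA and 121, 560.0 and 575 in MCA101OVA (log2 fold -3.30 ± 0.52 (SE), adjusted p = 0.00133). H2-D1, the other classical chain, stood at 76.2, 215 and 97.4 CPM in B16OVA and 316.3, 1074 and 1166 in MCA101OVA (log2 fold -2.59 ± 0.42 (SE), adjusted p = 0.00162). All MCA101OVA values lay above all B16OVA values for both, though MCA101OVA replicate 1 was well under its other replicates. In the single OVA libraries of run B176 H2-K1 had the opposite order, 167 CPM in B16OVA and 141 in MCA101OVA, while H2-D1 kept its order, 152 and 321.1 CPM. Of the 12 called members, 3 had the opposite sign in those libraries: H2-K1, the peptide loading factor Tapbp and the transcription factor Irf1. In the single libraries of run B176 without OVA these 3 kept the main direction (log2 ratio of B16 over MCA101 -0.90, -0.78 and -1.57). Tapbp lost its call with 4 of the 6 libraries left out in turn (adjusted p 0.0734 to 0.0846) and Irf1 with 5 (0.0752 to 0.236). Of the 22 members, 13 (59.1%) were lowest in set 1 and highest in set 3 of MCA101OVA, against 17.1% of all tested genes. Class I chains are near-identical over long stretches, so reads can be split between them. Tap2, which carries peptides into the endoplasmic reticulum, stood at 3.07, 6.45 and 4.205 CPM in B16OVA and 19.4, 59.9 and 62.6 in MCA101OVA (log2 fold -3.26, adjusted p = 0.00066). Nlrc5, the transactivator of class I genes, stood at 1.21, 1.04 and 1.14 CPM in B16OVA and 14.97, 29.3 and 44.6 in MCA101OVA (log2 fold -4.62 ± 0.54 (SE), adjusted p = 0.000293). B2m, the light chain, was called (log2 fold -1.24, adjusted p = 0.0269), but its ranges overlapped and it was not called without B16OVA replicate 3 (adjusted p = 0.127), without MCA101OVA replicate 2 (adjusted p = 0.121) or with no run term (adjusted p = 0.055). The chaperone Calr did not pass the test (log2 fold 0.39, adjusted p = 0.523).

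Interferon-stimulated genes, which cells switch on when they meet interferon, varied widely between the MCA101OVA libraries. Summed over the 54 genes of the list, they stood at 454, 561 and 539.7 CPM in the 3 B16OVA libraries and at 572, 1496 and 5728 in MCA101OVA. The MCA101OVA Ctrl libraries of the same 3 sets stood at 624, 1733 and 5416, the same order, against 365, 328.3 and 441 in B16OVA Ctrl. In the single libraries of run B176 the sum was 1460.0 in MCA101OVA and 1892 in MCA101 without OVA, against 710.4 in B16OVA and 491 in B16. Of 49 tested members, 44 (89.8%) were lowest in set 1 and highest in set 3 of MCA101OVA, against 4 (8.16%) in B16OVA and 17.1% of all tested genes in MCA101OVA. Every library of MCA101OVA lay above every library of B16OVA in the sum, but set 1 did so by little. That order in set 1 rested on 1 gene, Ly6e, whose level is given below. Without Ly6e, the set 1 sum of MCA101OVA lies under every B16OVA sum. What set the libraries of MCA101OVA apart was not tested.

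**Figure D4:**
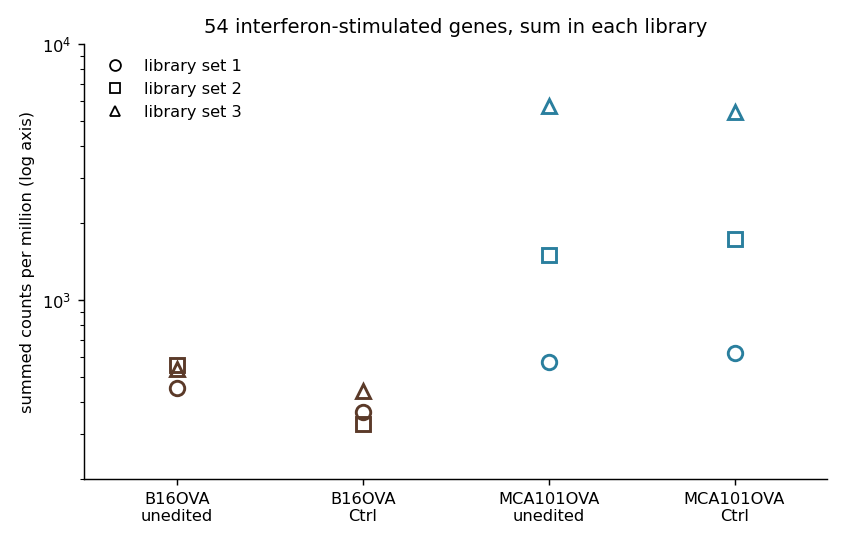
Summed CPM (log axis) of the 54 interferon-stimulated genes in each unedited and Ctrl library, with the marker showing the library set. The B16OVA libraries lie between 328.3 and 561, while those of MCA101OVA spread from 572 in set 1 to 5728 in set 3, and unedited and Ctrl libraries of a set lie close together.

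Promoters of 3 interferon-stimulated genes are shown with GAAA, any 2 bases and GAAA again, the core of the interferon-stimulated response element, in capitals, searched on both strands with overlaps allowed. The windows are Isg15 at chr4:156200819-156201068, minus strand, Oas3 at chr5:120777660-120777909, minus strand, and Bst2 at chr8:71537473-71537722, minus strand, again 250 bases before the RefSeq start.
Isg15: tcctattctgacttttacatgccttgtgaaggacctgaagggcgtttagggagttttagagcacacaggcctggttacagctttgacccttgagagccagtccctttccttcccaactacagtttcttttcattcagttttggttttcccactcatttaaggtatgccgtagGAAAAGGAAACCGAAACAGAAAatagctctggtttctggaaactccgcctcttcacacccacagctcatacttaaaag
Oas3: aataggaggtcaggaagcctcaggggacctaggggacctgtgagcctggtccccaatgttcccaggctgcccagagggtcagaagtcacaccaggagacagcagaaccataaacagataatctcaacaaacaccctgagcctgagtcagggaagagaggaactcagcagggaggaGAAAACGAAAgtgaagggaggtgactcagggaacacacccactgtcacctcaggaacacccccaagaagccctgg
Bst2: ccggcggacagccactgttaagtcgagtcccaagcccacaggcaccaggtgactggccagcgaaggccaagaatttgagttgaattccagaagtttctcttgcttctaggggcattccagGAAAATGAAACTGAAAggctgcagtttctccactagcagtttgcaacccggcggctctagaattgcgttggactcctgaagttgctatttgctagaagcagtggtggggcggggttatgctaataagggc
Isg15 held 3 overlapping matches, Bst2 2 and Oas3 1. Of the 54 listed genes, 38 had a window and 19 held the motif, against 936 of all 27025 genes with a window (3.46%).

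Of the 49 tested interferon-stimulated genes, 15 were called higher in MCA101OVA and 2 in B16OVA, a share of 34.7% against 26.3% of all tested genes, and 10 of the 17 calls remained with any library left out. With the library set as a block, 12 further members were called. Oas3, a sensor of double-stranded RNA that starts RNA decay, stood at 4.39, 49.3 and 236 CPM in MCA101OVA and had 2 counts in B16OVA, 4486-fold (95% interval 1242 to 37048). Oasl1, a related protein that damps the response, stood at 0.367, 0.616 and 0.996 CPM in B16OVA and 11.7, 42.4 and 146 in MCA101OVA (log2 fold -6.30 ± 0.72 (SE), adjusted p = 0.000273), and Ifi204, a DNA sensor, at 0.0262, 0 and 0.122 in B16OVA and 4.14, 30.3 and 46.9 in MCA101OVA (log2 fold -8.62 ± 0.85 (SE), adjusted p = 0.000123). Isg20, an antiviral exonuclease, stood at 1.21, 3.65 and 2.58 CPM in B16OVA and 48.5, 66.8 and 147 in MCA101OVA (log2 fold -5.20, adjusted p = 0.000123). These 4 were higher in every MCA101OVA library, set 1 included. Others were not: Bst2, tetherin, stood at 34.6, 54.4 and 51.4 CPM in B16OVA and 32.7, 117 and 619.7 in MCA101OVA, where set 1 lay under all of B16OVA, and it had no call (log2 fold -1.93, adjusted p = 0.103). With the block Bst2 was called (adjusted p = 0.00816), and it was called too without B16OVA replicate 1 (adjusted p = 0.0204), MCA101OVA replicate 1 (adjusted p = 0.0294) or MCA101OVA replicate 2 (adjusted p = 0.0449). Isg15, a ubiquitin-like protein, stood at 4.80, 9.82 and 9.38 CPM in B16OVA and 8.51, 67.5 and 595 in MCA101OVA and was called (log2 fold -3.91, adjusted p = 0.0341), but not without B16OVA replicate 2 (adjusted p = 0.155) or 3 (adjusted p = 0.105), and its lowest MCA101OVA value lay within the B16OVA range. Ly6e, a membrane protein of the Ly6 family that blocks viral entry, was set apart from the rest: 253.1, 258 and 425 CPM in MCA101OVA and 1 count in B16OVA, 30971-fold (95% interval 5558 to 1223320.0). Parp12, an antiviral transferase, was one of the 2 in the other direction, with 42.5, 43.4 and 41.6 CPM in B16OVA and 3 counts in MCA101OVA, 1488-fold (95% interval 509 to 7216). Of 26 tested receptors and sensors upstream, 3 were higher in B16OVA and 2 in MCA101OVA, a smaller share than the 26.3% of all tested genes. Ifnar1, a chain of the type I interferon receptor, stood at 96.1, 73.7 and 69.5 CPM in B16OVA and 57.8, 70.4 and 61.7 in MCA101OVA (log2 fold 0.30, adjusted p = 0.563), and Jak1, the kinase it uses, at 197, 100.05 and 183 in B16OVA and 183, 164 and 254 in MCA101OVA (log2 fold -0.38, adjusted p = 0.502). Il10rb, a shared receptor chain for interleukin 10 and interferon lambda, was higher in B16OVA, at 64.2, 60.7 and 59.2 CPM in B16OVA and 6.97, 10.9 and 9.89 in MCA101OVA (log2 fold 2.73 ± 0.38 (SE), adjusted p = 0.000784).

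More secreted factors were called higher in MCA101OVA than in B16OVA, while their summed level overlapped. The sum over the list was 973 to 2092 CPM in B16OVA and 1727 to 2102 in MCA101OVA. Of 40 tested chemokines, cytokines and growth factors, 23 were higher in MCA101OVA and 5 in B16OVA (median log2 fold -3.30), and 25 of the 28 calls remained with any library left out. Csf1, the growth factor of macrophages, stood at 20.4, 22.9 and 12.7 CPM in B16OVA and 169, 170.1 and 399 in MCA101OVA (log2 fold -3.70 ± 0.49 (SE), adjusted p = 0.000587), and Ccl2, which draws monocytes, had no count in B16OVA and 15.2, 8.47 and 4.54 CPM in MCA101OVA, at least 333.3-fold higher. Ligands of the EGF receptor were on together: Hbegf stood at 5.93, 3.84 and 6.68 CPM in B16OVA and 100.8, 169 and 134 in MCA101OVA (log2 fold -4.63 ± 0.41 (SE), adjusted p = 7.75e-05), Areg at 9.90, 10.7 and 11.7 CPM in MCA101OVA with 1 count in B16OVA, 1072-fold (95% interval 192 to 42384), and Ereg likewise, 1838-fold (95% interval 329.4 to 72621). Bdnf, a neurotrophin, was also on that side and stood at 1.97, 0.190 and 1.31 CPM in B16OVA and 47.2, 47.7 and 48.9 in MCA101OVA (log2 fold -5.53, adjusted p = 0.000487). Of 24 tested checkpoint, natural killer and adenosine ligands, 9 were higher in MCA101OVA and 2 in B16OVA, and 7 of the 11 remained with any library left out. Ptgs2, the inducible cyclooxygenase that makes prostaglandin E2, stood at 0.0262, 0.0948 and 0.0243 CPM in B16OVA and 247, 292 and 475 in MCA101OVA (log2 fold -12.89 ± 0.65 (SE), adjusted p = 9.26e-06). Cd47, the signal that keeps macrophages from engulfing a cell, was expressed by both and higher in MCA101OVA, 31.6, 17.9 and 23.1 CPM in B16OVA and 107, 110.3 and 196 in MCA101OVA (log2 fold -2.56 ± 0.41 (SE), adjusted p = 0.00145). Cd274, the checkpoint ligand PD-L1, stood at 5.56, 2.37 and 3.26 CPM in B16OVA and 1.70, 5.46 and 22.8 in MCA101OVA with no call (log2 fold -1.18, adjusted p = 0.453), and its MCA101OVA values had the order of the interferon-stimulated sum. Fgf1, a fibroblast growth factor, was one of the few on the B16OVA side, at 16.5, 6.69 and 10.2 CPM in B16OVA and 0.163, 0.102 and 0.0302 in MCA101OVA (log2 fold 6.76, adjusted p = 0.000146).

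Receptor tyrosine kinases were divided evenly, with 10 of 29 tested higher in each line, and 18 of the 20 calls remained with any library left out. B16OVA had Kit, Met and Erbb3, the last a neuregulin receptor of Schwann cells and melanocytes, at 103, 59.1 and 63.5 CPM in B16OVA and 0.674, 1.81 and 1.69 in MCA101OVA (log2 fold 5.77, adjusted p = 0.000121). MCA101OVA had Axl, the receptor of Gas6, at 1119.9, 1317 and 1467 CPM against 18.8, 32.6 and 20.998 in B16OVA (log2 fold -5.78 ± 0.42 (SE), adjusted p = 3.33e-05), and Epha2, an ephrin receptor, at 308.1, 264 and 496 against 7.51, 8.25 and 8.60 (log2 fold -5.48 ± 0.42 (SE), adjusted p = 4.08e-05). Fgfr1, a receptor for fibroblast growth factors, stood at 1.15, 2.04 and 1.12 CPM in B16OVA and 27.6, 40.4 and 62.5 in MCA101OVA (log2 fold -4.90, adjusted p = 0.000171). Mitf and Axl, whose opposite levels are a known division among human melanomas, thus lay on opposite sides of this comparison. Ror2, the receptor of Wnt5a, and Wnt5a itself had no count in B16OVA: Ror2 stood at 43.9, 42.4 and 55.9 CPM in MCA101OVA, at least 1582-fold higher, and Wnt5a at 21.1, 15.5 and 20.05, at least 643-fold higher. Among 34 tested Wnt pathway genes, 10 were higher in each line, 58.8% called against 26.3% of all tested genes. Of these 20 calls, 16 remained with any library left out. Wnt7b, a secreted Wnt, stood at 0.0787, 0.0474 and 0 CPM in B16OVA and 159.8, 122 and 224 in MCA101OVA (log2 fold -12.003 ± 0.78 (SE), adjusted p = 2.32e-05). In B16OVA, Axin2, a direct target of the beta-catenin pathway, stood at 11.1, 9.20 and 10.01 CPM against 0.0930, 0.0341 and 0.0605 (log2 fold 7.21 ± 0.68 (SE), adjusted p = 0.0001), and the inhibitor Dkk3 at 85.2, 38.6 and 66.1 in B16OVA and 0.186, 0.0683 and 0 in MCA101OVA (log2 fold 9.57, adjusted p = 6.23e-05). Of 36 tested TGF-beta and BMP genes, 11 were higher in MCA101OVA and 5 in B16OVA, 44.4% against 26.3% of all tested genes. Of these 16 calls, 14 remained with any library left out. Ltbp1, which stores latent TGF-beta in the matrix, stood at 1.78, 0.711 and 1.31 CPM in B16OVA and 277, 233 and 668 in MCA101OVA (log2 fold -8.30 ± 0.67 (SE), adjusted p = 5.38e-05), and Inhba, the activin A subunit, at 0.0525, 0 and 0.0972 in B16OVA and 34.3, 32.4 and 88.9 in MCA101OVA (log2 fold -9.73, adjusted p = 7.33e-05). Bambi, a decoy receptor, was higher in B16OVA (log2 fold 3.11, adjusted p = 0.00129).

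Few genes of the cell cycle were called. Of 43 tested cell cycle and replication genes, 4 were higher in B16OVA and 3 in MCA101OVA, 16.3% against 26.3% of all tested genes, and 3 of these 7 calls remained with any library left out. Those 3 were Cdkn1a, the p21 inhibitor, at 229, 663 and 397 CPM in B16OVA and 19.8, 28.5 and 56.4 in MCA101OVA (log2 fold 3.59 ± 0.43 (SE), adjusted p = 0.000353), Cdk2, given above, and Myc, at 62.9, 66.4 and 68.4 CPM in B16OVA and 300.7, 330.2 and 668 in MCA101OVA (log2 fold -2.71 ± 0.39 (SE), adjusted p = 0.00082). Mki67, the proliferation marker, stood at 201, 42.6 and 358 CPM in B16OVA and 178, 92.8 and 83.9 in MCA101OVA without a call (log2 fold 0.79, adjusted p = 0.441). Of 21 tested p53 pathway genes, 7 were higher in B16OVA and 3 in MCA101OVA, 47.6% against 26.3% of all tested genes. Of these 10 calls, 7 remained with any library left out. The 3 on the MCA101OVA side had log2 folds of -1.39 to -2.93, and 2 of them remained. The 3 genes named next are all on the B16OVA side. Ccng1, a target of p53, stood at 313.3, 84.6 and 422 CPM in B16OVA and 39.9, 32.2 and 38.6 in MCA101OVA (log2 fold 2.82, adjusted p = 0.0039), Phlda3 at 82.9, 275 and 159.9 in B16OVA and 34.2, 47.8 and 34.1 in MCA101OVA (log2 fold 2.02, adjusted p = 0.00797), and Zmat3 at 137, 119 and 119 in B16OVA and 32.0, 24.2 and 40.3 in MCA101OVA (log2 fold 1.92, adjusted p = 0.00307). Trp53 itself overlapped between the lines (log2 fold -0.40, adjusted p = 0.567). Of 38 tested genes of glycolysis and oxidative control, 6 were higher in B16OVA and 3 in MCA101OVA, and their share, 23.7%, is near that of all tested genes. Ppargc1a, the driver of mitochondrial genes that Mitf is known to control, stood at 64.1, 21.01 and 120.0 CPM in B16OVA with 1 count in each MCA101OVA library, 2739-fold (95% interval 937 to 13285). Ldhb, the heart form of lactate dehydrogenase, stood at 141, 277 and 137 CPM in B16OVA and 0.0232, 0.751 and 0.151 in MCA101OVA (log2 fold 9.56, adjusted p = 0.000105), and Slc16a3, a lactate exporter, at 29.2, 77.9 and 37.8 in B16OVA and 441, 324.1 and 306.6 in MCA101OVA (log2 fold -2.93, adjusted p = 0.00213). Sterol and fatty acid genes had 7 of 30 higher in B16OVA and none in MCA101OVA. Their share called, 23.3%, is near the 26.3% of all tested genes, and only 4 of the 7 remained with every library left out. Of 28 tested genes of H3K9 and DNA methylation, 3 were higher in B16OVA and 1 in MCA101OVA, 14.3% against 26.3% of all tested genes. The calls of Suv39h2, an H3K9 methyltransferase (log2 fold -2.31, adjusted p = 0.0106), and Tet1, which oxidises methylated cytosine (log2 fold 6.27, adjusted p = 0.00151), remained with any library left out. Of 330 tested zinc finger genes named Zfp, 45 were called, 13.6% against the same 26.3%.

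Imprinted genes, which are read from only the maternal or the paternal copy, were often on in one line only. Of 21 tested, 7 were higher in B16OVA and 5 in MCA101OVA, 57.1% against 26.3% of all tested genes. Of these 12 calls, 11 remained with any library left out. Peg10, a paternally expressed gene of retrotransposon origin (chr6:4747306-4760517), stood at 82.7, 14.5 and 59.7 CPM in B16OVA with no count in MCA101OVA, at least 2070.4-fold higher. Its neighbour Sgce, also paternally expressed, stood at 92.5, 70.3 and 81.8 CPM with 3 counts in MCA101OVA, 2932-fold (95% interval 1003 to 14222). Plagl1, a zinc finger factor of growth control, stood at 314.5, 34.7 and 235 CPM in B16OVA and 0.0232, 0.0683 and 0.0302 in MCA101OVA (log2 fold 12.06, adjusted p = 6.93e-05). Igf2, the paternally expressed growth factor, had no count in B16OVA and stood at 11.7, 11.6 and 12.5 CPM in MCA101OVA, at least 399-fold higher. Phlda2, a maternally expressed placental gene, stood at 0.709, 1.38 and 0.681 CPM in B16OVA and 19.7, 18.99 and 22.2 in MCA101OVA (log2 fold -4.51, adjusted p = 0.000415). Of 8 tested germline genes, 5 were called (62.5%) and all 5 calls remained with any library left out. Rhox5, a homeobox gene of the X chromosome often on in tumours, stood at 2.91, 3.32 and 3.18 CPM in B16OVA and 112, 98.5 and 169 in MCA101OVA (log2 fold -5.36 ± 0.43 (SE), adjusted p = 5.21e-05), and Dppa2, an early embryo factor, had no count in B16OVA, at least 381-fold lower than in MCA101OVA.

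The genes with the largest folds included several outside these lists. Rnf144a, a ubiquitin ligase (ENSMUSG00000020642, chr12:26300964-26415254), stood at 81.9, 43.3 and 48.3 CPM in B16OVA with no count in MCA101OVA, at least 2108-fold higher. Fkbp6 (ENSMUSG00000040013, chr5:135291704-135350044), a gene known from male meiosis, stood at 125, 236 and 172 CPM in B16OVA with 1 count in MCA101OVA, 17671-fold (95% interval 3171 to 698026). It was close to silent in the 5 melanocyte libraries, at most 0.331 CPM, and the healthy tissue with the highest mean was stomach at 5.34 CPM. Cers4, Klhl13, Selenbp1, Akip1, Zfp518b, Ehhadh, Zdhhc15, Rasal3 and Ppfibp2 likewise had no count in MCA101OVA, with lower bounds from 937-fold (Ppfibp2) to 1592-fold (Klhl13). On the MCA101OVA side stood Prl2c3, a proliferin (ENSMUSG00000056457, chr13:12790816-12800079), at 293, 549.8 and 117 CPM with no count in B16OVA, at least 10338-fold higher. The proliferin genes are near-identical copies, so the share of each is uncertain. Prl2c3 also differed between MCA101 libraries of run B176, 328.4 CPM with OVA and 12.7 without. Apcdd1, a Wnt inhibitor, stood at 112, 104 and 26.2 CPM in MCA101OVA with no count in B16OVA, at least 2774-fold higher. Tigit, an inhibitory receptor of T and natural killer cells, stood at 20.01, 55.5 and 45.1 CPM in MCA101OVA with no count in B16OVA, at least 1262-fold higher, in libraries where Ptprc, Cd3e and Nkg7 had no count and Cd14, a monocyte marker, stood at 9.02, 17.5 and 10.4 CPM. The libraries of MCA101OVA and MCA101 in run B176 held 31.0 and 87.0 CPM of Tigit. Stambpl1, Simc1, Fam83g, Atp10a, Sox12, Pde3b, Tpbg and F2rl1 had no count in B16OVA either, with lower bounds from 1245-fold (F2rl1) to 2425-fold (Stambpl1). Among genes past 4-fold at high counts, Tecpr1 (log2 fold 5.21, adjusted p = 4.25e-05) was higher in B16OVA, and Ahnak (log2 fold -6.10, adjusted p = 0.0002), Emp1 (log2 fold -4.38, adjusted p = 0.00022), Plec (log2 fold -3.69, adjusted p = 0.000133), Mfge8 (log2 fold -2.91, adjusted p = 0.000696) and Fam129b (log2 fold -2.81, adjusted p = 0.000335) in MCA101OVA.

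Chromosome 6 leaned to B16OVA over most of its length. The 711 tested genes of chromosome 6 had a median log2 fold of 0.75, and 234 of them (32.9%) were called higher in B16OVA against 50 (7.03%) in MCA101OVA, where all tested genes gave 14.4% and 11.9%. The lean was strongest over the first 50 Mb: 192 genes with a median of 1.72, of which 167 (87.0%) had a positive log2 fold, 106 were called higher in B16OVA and 9 in MCA101OVA. The other 519 genes had a median of 0.50, and the lean was missing at the far end: the 49 genes from 140 to 150 Mb had a median of -0.43, with 7 called in each direction, and the 41 from 130 to 140 Mb a median of 0.11, with 7 higher in B16OVA and 10 in MCA101OVA. Members named above lie in the first stretch, namely Peg10, Sgce, Met (chr6:17463800-17573980) and Gpnmb (chr6:49036546-49070929). Mest, an imprinted gene (chr6:30723547-30748465), lies there too and was at least 652-fold higher in B16OVA. Of 225 windows of 10 Mb across the genome with at least 20 tested genes, 5 had a median over 1, and all 5 were on chromosome 6. In the other direction 3 windows had a median under -1, 1 each on chromosomes 13, 18 and X, and the lowest was -1.09. The median of chromosome 6 was 0.72 in the Ctrl libraries, 0.76 without B16OVA replicate 2, and in the single libraries of run B176 0.72 with OVA and 0.75 without. Chromosomes 13, 14, 18 and 19 leaned the other way, with medians of -0.41, -0.40, -0.48 and -0.47 (Ctrl -0.54, -0.41, -0.51 and -0.53), and the other chromosomes lay between -0.18 and 0.26. Gene copy number was not measured here, and its part in these medians was not tested.

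**Figure D5:**
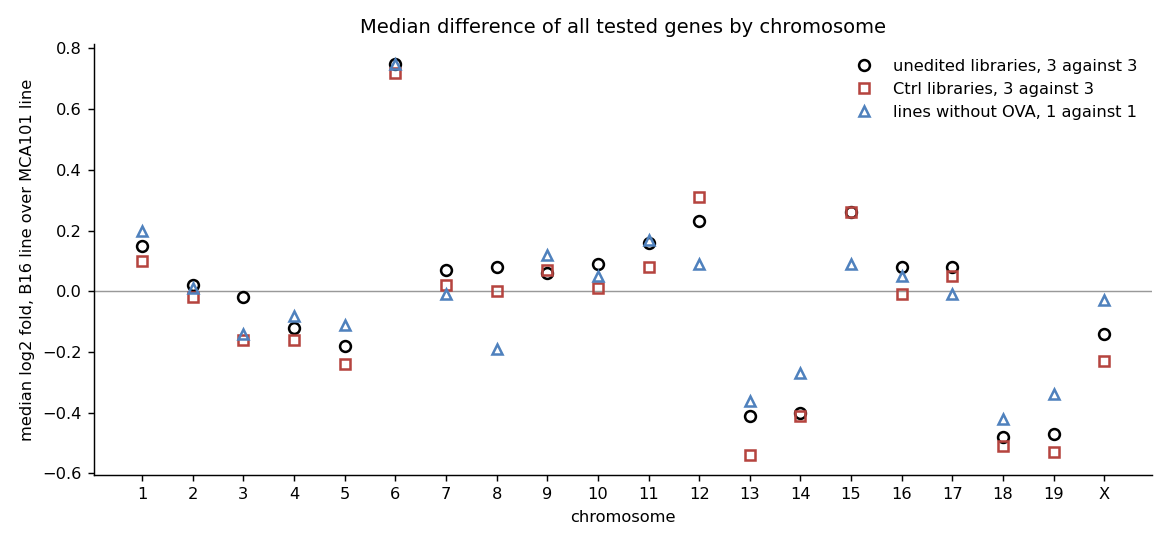
Median log2 fold of all tested genes on each chromosome, B16 line over MCA101 line, in the unedited libraries (circles), the Ctrl libraries (squares) and the single libraries of the lines without OVA (triangles). Chromosome 6 stands at 0.72 to 0.75 in all 3, and chromosomes 13, 14, 18 and 19 lie below the rest.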

How the data were processed

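The authors deposited raw counts per gene for 105 libraries in a single table of 53379 gene identifiers. Per the submitters' processing notes, the tools named are FastQC, Trim Galore, STAR and HTSeq and the genome is mm10. Not given in the sources used here are versions, strand setting, annotation and the handling of reads with several positions. Symbols were matched for 53274 identifiers. Libraries were grouped by their titles.

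Counts of the 6 libraries were fitted with edgeR 4.0.16 in R 4.3.3 (TMM scaling, filterByExpr by line, quasi-likelihood F test with terms for run and line), with Benjamini-Hochberg adjustment over all 14266 tested genes and a threshold of 0.05. A second test asked for more than 4-fold. Standard errors are the absolute log2 fold over the square root of F. CPM values are counts scaled to the library total. Where a line had no count, the fold is a lower bound against a floor of 3 counts over the group. With 1 to 3 counts, the ratio has an exact 95% interval, which covers counting error only. The procedure was tested on simulated data. The same test was run on the Ctrl libraries and for the interaction of line and condition. DESeq2 1.42.0 was an alternative, with other scalings, filters, terms and each library left out.

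Replicates with the same number come from the same library set. Deviations from the line means correlated within sets at 0.263, 0.519 and 0.247, and between different sets at -0.474 to 0.18. The highest of the latter, 0.18, was B16OVA set 1 with MCA101OVA set 3. Each within-set value thus lay above every value between sets, by a wide margin only in set 2. A fit with the set as a replicate block was run beside the main one.

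The named genes are, by rule, the 15 per line with the largest fold among called genes whose mean in the higher line is 5 CPM or more, the 10 per line with the highest level past 4-fold, and members of the gene lists. The members and lists were chosen with earlier results of these data known. Promoter windows are from RefSeq, build GRCm38.p6. Of the pigment genes, 20 of 26 matched a window, and of the interferon-stimulated genes 38 of 54. The deposited table of library-scaled values was not used.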

Additional observations from a re-analysis of the deposited data

How the results depend on the processing

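The count of called genes, 3747, ranged from 2704 to 4406 when each library was left out in turn, and was 3763 with RLE size factors, 4530 with DESeq2, 5079 with no filter on low counts, 4050 with no run term, 5538 with 27 libraries in the fit and 4576 with run B176 added. A filter of at least 5 CPM in 3 libraries tests fewer genes and gave 2161 called genes, 986 past 4-fold and 132 list members higher in B16OVA and 177 higher in MCA101OVA, against 3747, 2003, 218 and 261. With the library set as a replicate block, which pairs the lines, 5122 genes were called, 2169 past 4-fold and 263 list members higher in B16OVA, and in Ctrl 3972 in place of 2251; the cause was not tested. Leaving out the library of set 2 of both lines, an alternative chosen after seeing the data, gave 5092 called genes, 2293 past 4-fold and 274 list members higher in B16OVA. Of 172 called genes named in the text, 165 kept direction and call in every alternative that tested them, and the 7 others (B2m, Isg15, Col1a1, Hoxa3, Pkp2, Tapbp and Irf1) kept their direction and lost the call in the settings given beside them, Tapbp and Irf1 also with run B176 added (adjusted p 0.147 and 0.0890) and Irf1 with the 5 CPM filter (0.0674). Of the genes without a call, the log2 fold changed sign for Cd274 (-2.35 to 0.0522), Mki67 (-0.515 to 1.195), Trp53 (-0.957 to 0.0201) and Setdb1 (-0.226 to 0.0420, and 0.113 without set 2 of both lines), ranges over the libraries left out. Bst2, Vim and Zeb2, without a call, were also called with DESeq2 (adjusted p 0.0212, 0.0243 and 0.0418) and with no filter on low counts. Depth limits the folds of genes with 3 counts or fewer in a line, which are bounds or carry a wide interval.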
